A study of Mus musculus with 12 samples.

Results

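The genes described here are 36 genes of the unfolded protein and heat shock responses, out of the 27179 genes counted in the series. They were taken as a list of named genes, by gene number, and split into 20 genes of the endoplasmic reticulum (ER) arm and 16 heat shock proteins of the cytosol and mitochondria. All 36 were found in the counts, and all 36 were among the 13626 genes that passed the filter on low counts. RNA was measured by sequencing ribosome-depleted total RNA from frozen mouse heart tissue.

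Each of 4 groups held 3 hearts. The FA TAC and FA sham animals were exposed to filtered air (FA) in utero, and the DE TAC and DE sham animals to diesel exhaust (DE), between embryonic stages E0.5 and E17.5. When the animals were 12 weeks old, the left ventricle was put under pressure by transverse aortic constriction (TAC), with the aorta tied to the width of a 27 gauge needle, or the operation was a sham, and the tissue was taken at 15 weeks. The strain, the sex, the litter and the run of each library are not stated in the sources used. Hearts of an exposure group may share a litter, in which case the p-values of the exposure tests would be too small. The p-values set a change against the spread between these hearts, estimated from all 4 groups.

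Proteins that enter the ER are folded by chaperones in its lumen, and when unfolded chains build up, sensors in the ER membrane (ATF6, IRE1 and PERK) start the unfolded protein response. ATF6 and the spliced form of XBP1 raise the transcription of ER chaperones through the ER stress element of their promoters, while PERK acts through ATF4 and, in prolonged stress, CHOP. In the cytosol, heat shock factor 1 raises a separate set of chaperones, and cardiac muscle carries large amounts of small heat shock proteins that hold sarcomere and cytoskeletal proteins. Pressure overload has been studied for both responses because the growing myocyte makes more protein.

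After TAC, 5 of the 20 ER genes fell and 1 of the 16 heat shock protein genes rose, in the average over both exposures. The genes that fell were the lumenal Hsp70 Hspa5, its partner Hyou1, the lectin chaperone Canx, the disulfide isomerase Pdia6 and the ER membrane protein gene Herpud1. The gene that rose was Hsp90aa1, the stress-inducible cytosolic Hsp90. Among all 13626 genes tested, the same test (edgeR's quasi-likelihood test, adjusted p under 0.05) called 8.01%, of which 4.1% of all genes were higher and 3.91% lower after TAC. None of the 3 sensors, the 3 transcription factor genes Xbp1, Atf4 and Ddit3, the pseudokinase gene Trib3, 7 genes of the cytosolic Hsp70 system or 5 small heat shock protein genes passed it. Between diesel exhaust and filtered air, no member passed it in either operation.

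The promoters of 4 genes that fell are shown because each holds an ER stress element, the pattern through which ATF6 acts. The searched patterns were CCAAT, any 9 bases and CCACG (ERSE) and ATTGG, any base and CCACG (ERSE-II), on both strands of the 250 bases before the start of each RefSeq gene of GRCm38.p6. A promoter entry was at hand for 29 of the 36 members. Hyou1, Manf, Atf6, Hspa8, Hsp90aa1, Hsp90ab1 and Cryab had none and were not searched. Each sequence ends at the base before the gene's start and runs 5′ to 3′ on the gene's strand, with the match in capitals. The regions are chr2:34771840-34772089 (plus strand) for Hspa5, chr12:17266339-17266588 (plus strand) for Pdia6, chr11:50325674-50325923 (minus strand) for Canx and chr8:94386179-94386428 (plus strand) for Herpud1.
Hspa5: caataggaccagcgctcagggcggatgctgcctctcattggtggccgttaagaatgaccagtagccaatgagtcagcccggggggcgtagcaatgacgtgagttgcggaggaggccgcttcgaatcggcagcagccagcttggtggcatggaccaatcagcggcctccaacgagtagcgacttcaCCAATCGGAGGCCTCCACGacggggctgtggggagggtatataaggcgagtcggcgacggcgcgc
Pdia6: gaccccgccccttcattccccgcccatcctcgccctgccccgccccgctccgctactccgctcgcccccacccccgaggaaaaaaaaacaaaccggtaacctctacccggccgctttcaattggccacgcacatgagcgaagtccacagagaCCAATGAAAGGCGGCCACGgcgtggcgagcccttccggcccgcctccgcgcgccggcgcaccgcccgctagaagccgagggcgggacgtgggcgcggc
Canx: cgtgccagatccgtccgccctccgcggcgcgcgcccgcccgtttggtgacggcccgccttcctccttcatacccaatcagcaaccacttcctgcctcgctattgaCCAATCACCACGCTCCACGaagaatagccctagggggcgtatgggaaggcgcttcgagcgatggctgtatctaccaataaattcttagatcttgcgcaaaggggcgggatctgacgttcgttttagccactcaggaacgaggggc
Herpud1: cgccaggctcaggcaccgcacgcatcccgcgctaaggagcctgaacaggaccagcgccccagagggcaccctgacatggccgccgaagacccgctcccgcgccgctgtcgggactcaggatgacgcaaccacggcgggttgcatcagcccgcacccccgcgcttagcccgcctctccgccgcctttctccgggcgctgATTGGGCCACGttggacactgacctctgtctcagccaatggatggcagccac
All 4 hold 1 match. Hspa5, Pdia6 and Canx hold the ERSE, with its last base 47, 80 and 127 bases before the start in that order of genes, and Herpud1 holds the ERSE-II.

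ERSE matches also stood before 3 ER genes that did not pass the test. The matches are written as they lie on the gene's strand, so that a match to the other strand begins with CGTGG and ends with ATTGG.
Hsp90b1, upstream copy: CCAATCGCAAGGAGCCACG
Hsp90b1, downstream copy: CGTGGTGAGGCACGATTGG
Calr: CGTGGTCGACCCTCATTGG
Creld2: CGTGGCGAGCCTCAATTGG
In all, 6 of the 17 ER members with an entry held the ERSE and 1 the ERSE-II, against 0 of 12 heat shock protein genes for either pattern. Counted by gene in the same way, 0.13% of all 27025 genes with an entry held the ERSE and 0.037% the ERSE-II. The ER members were listed as genes of the unfolded protein response, which acts through this element. The list itself thus favours a higher share among them, and the shares are given as description only. The heat shock element was searched as GAA and TTC in turn, 3 blocks with any 2 bases between neighbours, starting with either block. It was found before 2 of the 12 heat shock protein genes with an entry and 0.514% of the 27025 genes. The 2 were Hspd1 and Hspe1, which lie head to head and share the stretch. No exact match stood before Hspa1a or Hspa1b, and Hsp90aa1, the member that rose, was not searched. Only exact matches were counted, so a promoter without one may still hold a variant of the element. The ATF4 response pattern TGATG, any base and AAT was in 0 of the 29 members with an entry and in 0.91% of the 27025 genes.

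Hspa5 encodes the main Hsp70 chaperone of the ER lumen, which also holds the sensors inactive. In FA hearts it stood at 338, 287 and 358 CPM (reads scaled to a common library size with TMM factors) after TAC, against 620.2, 414 and 484 CPM after sham. In DE hearts it stood at 320.4, 262 and 289 CPM after TAC, against 423, 447 and 479.6 CPM after sham. Every one of the 6 TAC hearts lay below every one of the 6 sham hearts, as was so for 2.13% of all genes. The log2 change after TAC was -0.63 ± 0.12 (SE) over both exposures, a level 1.55-fold higher in sham (edgeR adjusted p = 0.00239). It was -0.63 ± 0.17 in FA hearts (adjusted p = 0.104) and -0.63 ± 0.17 in DE hearts (adjusted p = 0.0488), and with this test Hspa5 was the only member called within an exposure. In DE hearts that call was kept only without FA TAC replicate 1 or 2 or FA sham replicate 1 and was lost in the other 9 of the 12 fits without a library, while the call over both exposures was kept in all 12. The DE call was also lost in 3 of 7 other settings, with RLE size factors (adjusted p = 0.0509), with the mitochondrially encoded genes left out (0.0538) and without the robust option (0.0765).

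Pdia6, a disulfide isomerase that works with Hspa5 and also acts on the IRE1 sensor, showed the same separation. In FA hearts it stood at 49.0, 47.8 and 46.8 CPM after TAC, against 67.3, 59.6 and 69.1 CPM after sham. In DE hearts the values were 42.6, 40.5 and 36.8 CPM after TAC, against 54.9, 60 and 54.7 CPM after sham. The 6 TAC hearts again lay below all 6 sham hearts, and the spread within each group was small. The log2 change was -0.47 ± 0.11 (adjusted p = 0.00979), and it kept its call in all 12 fits without a library. Hspa5 and Pdia6 were the 2 members that did not overlap over both exposures. No member lay higher in all 6 TAC hearts, as 2.19% of all genes did.

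Hyou1 encodes a large Hsp70-like protein that exchanges nucleotide on Hspa5. Its level in FA hearts was 57.9, 39.6 and 46.7 CPM after TAC, against 86.4, 56.1 and 63.0 CPM after sham. Its level in DE hearts was 37.2, 45.1 and 44.9 CPM after TAC, against 57.8, 69.2 and 61.6 CPM after sham. The groups did not overlap in DE hearts, and in FA hearts the highest TAC heart stood above the lowest sham heart. The log2 change over both exposures was -0.54 ± 0.14 (adjusted p = 0.0149), with adjusted p = 0.0538 without FA TAC replicate 2 and 0.0526 without FA sham replicate 1.

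Herpud1, an ER membrane protein that recruits the machinery of ER-associated degradation, stood in FA hearts at 121, 101 and 169 CPM after TAC, against 156, 202 and 155 CPM after sham. In DE hearts it stood at 135, 143 and 95.4 CPM after TAC, against 194, 242 and 183 CPM after sham. The DE groups did not overlap and the FA groups did. The log2 change was -0.56 ± 0.14 over both exposures (adjusted p = 0.0177) and -0.73 ± 0.20 in DE hearts (adjusted p = 0.0524). The call over both exposures was lost without FA TAC replicate 2 (adjusted p = 0.0604), FA sham replicate 2 (0.0554) or DE TAC replicate 3 (0.0623).

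Canx encodes calnexin, the membrane lectin that retains glycoproteins until they are folded. In FA hearts it stood at 179.8, 221 and 269 CPM after TAC, against 247, 294 and 293 CPM after sham, with overlap. In DE hearts it stood at 161, 208 and 199 CPM after TAC, against 242, 269 and 282 CPM after sham, with none. The log2 change was -0.40 ± 0.12, and with an adjusted p of 0.0481 it stood nearest to the threshold. It passed in 2 of the 12 fits without a library, and its adjusted p in these fits ran from 0.0286 to 0.115.

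**Figure D1:**
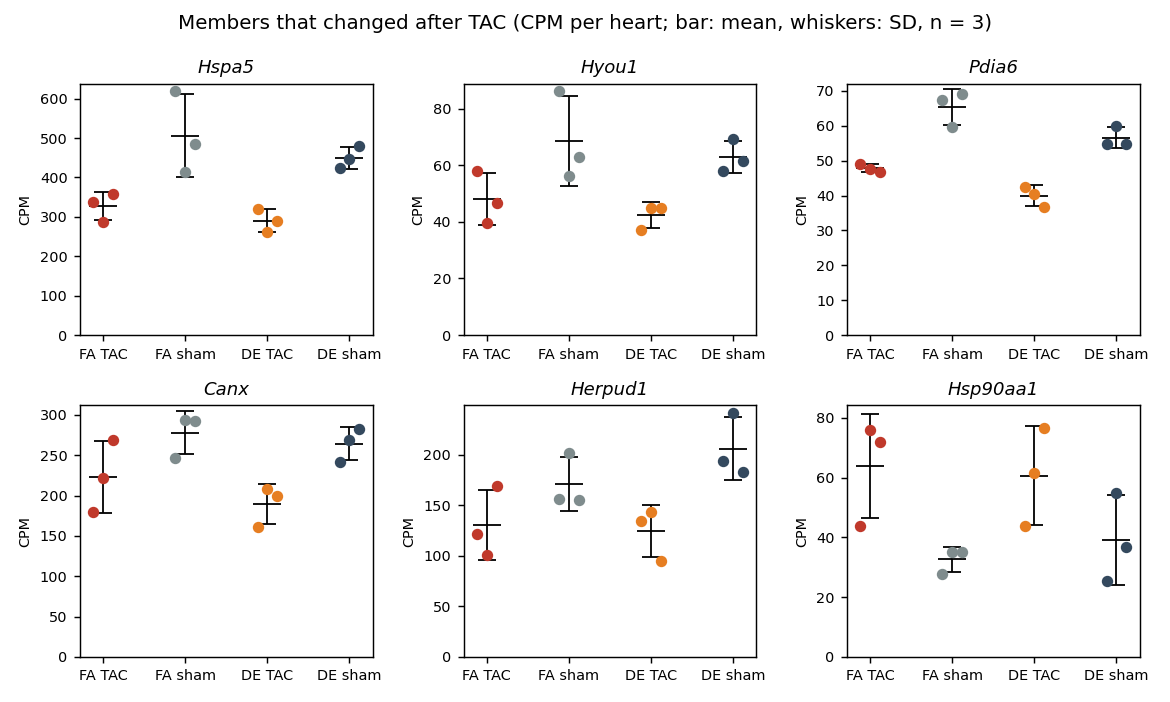
CPM (vertical axes, from 0) of the 6 members that changed after TAC, by group on the horizontal axis, with 1 point per heart and the mean and SD of 3 hearts. For Hspa5 and Pdia6 all 6 TAC hearts lie below all 6 sham hearts, and Hsp90aa1 is the member whose TAC hearts are mostly above.

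The other ER chaperones and secreted ER proteins did not pass the test. In the Hsp70 and Hsp90 group of the ER lumen, all 5 log2 changes over both exposures were negative, with a median of -0.54. Hsp90b1, the lumenal Hsp90, was at -0.25 ± 0.11 (adjusted p = 0.196), with DE hearts at 180.0, 191 and 208 CPM after TAC, just below 209, 235 and 235 CPM after sham. Sdf2l1, a cofactor of Hspa5, was at -0.59 ± 0.36 on 11 to 38 counts per library, and Dnajb9, a J-domain partner of Hspa5, at -0.20 ± 0.18. Among the lectins and isomerases, Calr was at -0.13 ± 0.13, Pdia3 at 0.09 ± 0.13 and Pdia4 at 0.15 ± 0.16, none past the test. Manf, a secreted ER stress protein, was at -0.50 ± 0.21 (adjusted p = 0.166), and Creld2, a calcium-binding ER protein, at -0.13 ± 0.21. For Manf, FA sham replicate 1 reached 58.9 CPM, and the change without it was -0.26. Without FA sham replicate 2 the change was -0.64 and the adjusted p 0.0398.

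None of the sensors passed the test. Atf6 stood in FA hearts at 152, 132 and 168 CPM after TAC, against 121, 129 and 119 CPM after sham, and in DE hearts at 126, 161 and 153 CPM after TAC, against 134, 122 and 147 CPM after sham. The FA groups did not overlap and the DE groups did, and the log2 change over both was 0.21 ± 0.11 (adjusted p = 0.305). Ern1, which encodes IRE1, stood in FA hearts at 4.76, 10.2 and 13.3 CPM after TAC, against 17.7, 11.2 and 7.63 CPM after sham. In DE hearts Ern1 was at 13.8, 10.3 and 9.75 CPM after TAC, against 16.7, 15.2 and 9.38 CPM after sham. Its groups overlapped in both exposures and the change was -0.34 ± 0.25 (adjusted p = 0.482). Eif2ak3, which encodes PERK, stood in FA hearts at 12.9, 12.8 and 8.96 CPM after TAC, against 12.7, 11.3 and 11.4 CPM after sham. In DE hearts it stood at 12.1, 10.3 and 10.3 CPM after TAC, against 7.15, 8.52 and 10.5 CPM after sham. Overlap was again present, and the change was 0.15 ± 0.18 (adjusted p = 0.717).

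None of the transcription factor genes that carry the response passed the test either. Xbp1 stood in FA hearts at 24.8, 31.2 and 33.0 CPM after TAC, against 41.1, 36.7 and 30.2 CPM after sham, and in DE hearts at 26.2, 32.9 and 32.8 CPM after TAC, against 26.2, 33.4 and 41.6 CPM after sham. The groups overlapped in both exposures. The change was -0.21 ± 0.14 (adjusted p = 0.439), and gene counts do not separate its spliced form. Ddit3, which encodes CHOP, stood in FA hearts at 7.38, 14.2 and 14.7 CPM after TAC, against 13.97, 12.8 and 15.6 CPM after sham. In DE hearts Ddit3 was at 12.7, 13.1 and 11.0 CPM after TAC, against 10.3, 14.5 and 11.7 CPM after sham. All groups overlapped, and the change was -0.11 ± 0.19 (adjusted p = 0.817).

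Atf4 stood in FA hearts at 23.1, 27.95 and 28.9 CPM after TAC, against 9.84, 27.5 and 20.4 CPM after sham. In DE hearts it was at 18.9, 24.3 and 25.5 CPM after TAC, against 13.5, 33.6 and 20.3 CPM after sham. Sham hearts spanned a wider range than TAC hearts, and the change was 0.26 ± 0.23 (adjusted p = 0.597). Trib3, a pseudokinase induced by ATF4 and CHOP, was at 0.02 ± 0.41 on 8 to 29 counts per library.

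Over the 20 ER genes the median log2 change after TAC was -0.30 in FA hearts, -0.19 in DE hearts and -0.21 over both, beside 0.0051, 0.00061 and 0.0039 for all genes tested. Negative changes were seen for 16, 12 and 14 of the 20. The heat shock protein genes had medians of 0.26, 0.09 and 0.21, with 12, 12 and 11 of the 16 positive. FA sham replicate 1 had the highest level of all 12 hearts for 8 of the 20 ER genes, and without it the ER median over both exposures was -0.15.

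The medians within an exposure moved with single hearts. The FA median of the ER genes was -0.17 without FA TAC replicate 1 and -0.19 without FA sham replicate 1, and that of the heat shock protein genes was 0.17 without FA TAC replicate 3. The DE median of the ER genes was -0.06 without DE TAC replicate 1 and -0.08 without DE sham replicate 3. For the heat shock protein genes the DE median turned to -0.01 without DE sham replicate 1, was 0.03 without DE TAC replicate 2 or DE sham replicate 3, and was 0.16 without DE TAC replicate 1 and 0.23 without DE sham replicate 2.

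**Figure D2:**
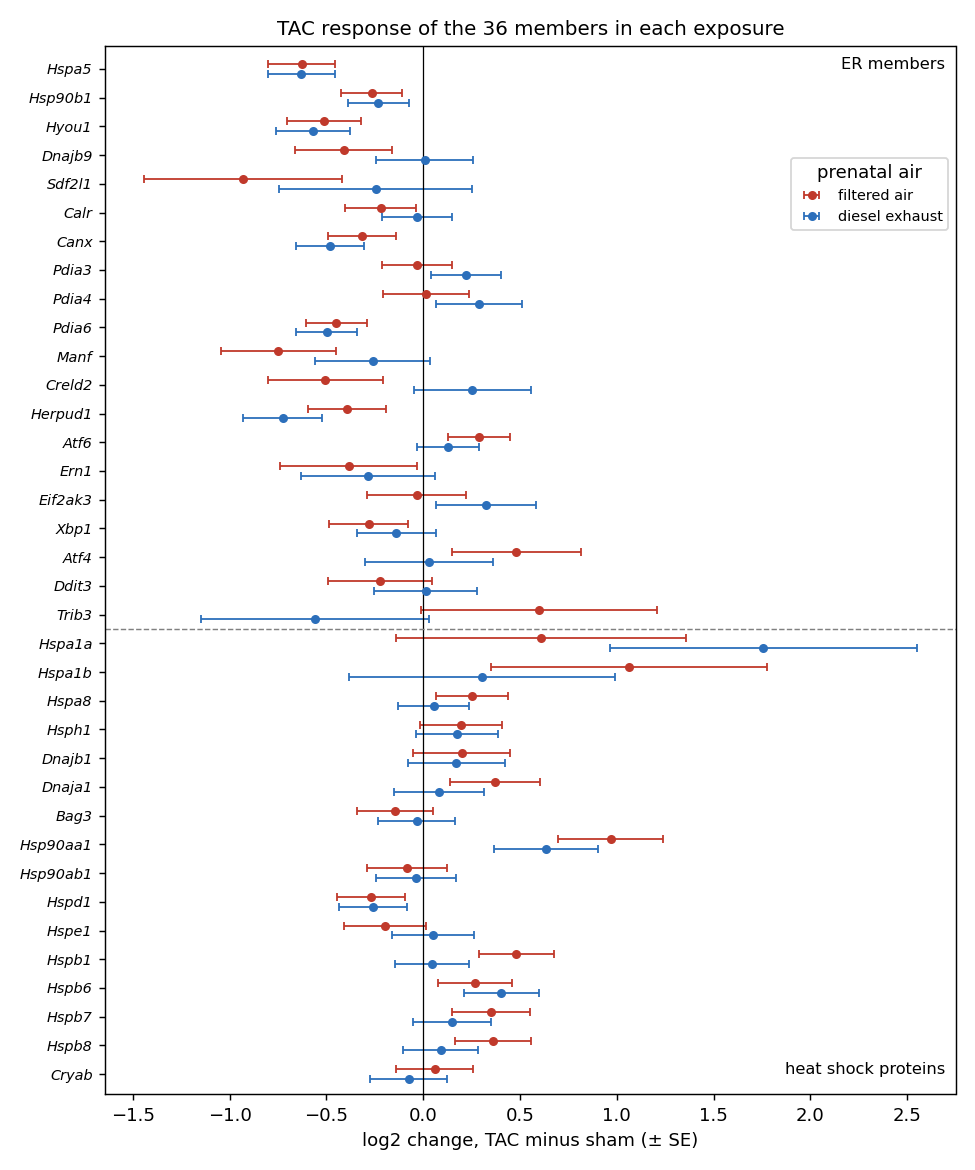
Log2 change after TAC (horizontal axis, TAC minus sham, ± SE) of each of the 36 members (rows), in filtered air (red) and diesel exhaust (blue) hearts, with the 20 ER genes above the dashed line and the 16 heat shock protein genes below it. Hspa5, Hyou1, Canx, Pdia6 and Herpud1 lie left of 0 in both exposures and Hsp90aa1 right of 0.

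In the cytosol, 1 of the 2 Hsp90 genes passed the test. Hsp90aa1, the inducible form, stood in FA hearts at 43.9, 75.9 and 71.8 CPM after TAC, against 27.8, 35.2 and 35.04 CPM after sham. Among DE hearts it stood at 43.8, 61.5 and 76.7 CPM after TAC, against 25.4, 55.0 and 36.9 CPM after sham. All FA TAC hearts were above all FA sham hearts, and in DE hearts sham replicate 2 reached into the TAC range. The log2 change was 0.80 ± 0.19 over both exposures, 1.74-fold (adjusted p = 0.0140), 0.97 ± 0.27 in FA hearts (adjusted p = 0.125) and 0.64 ± 0.27 in DE hearts (adjusted p = 0.242). Without FA sham replicate 1 the change was 0.75 with an adjusted p of 0.0502, and the other 11 such fits kept the call.

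Hsp90ab1, the constitutive form, was at 658 to 1071 CPM in TAC hearts and 728 to 1143 CPM in sham hearts, with a change of -0.06 ± 0.15 (adjusted p = 0.871). Of the counts of both Hsp90 genes, Hsp90aa1 took 3.94%, 10.4% and 8.12% in FA TAC hearts, against 2.38%, 4.30% and 4.41% in FA sham hearts. In DE hearts the share was 4.71%, 6.59% and 9.32% after TAC, against 2.47%, 6.14% and 4.83% after sham. Hsp90aa1 took the smaller share of the counts in every heart, and reads shared by the 2 related genes can be placed with either.

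Hspa1a and Hspa1b, the inducible Hsp70 genes and classic targets of heat shock factor 1, are near-identical copies, so their counts can be shared. Their 250 upstream bases differ at 3 positions, and their transcribed sequences were not compared here. Hspa1a stood in FA hearts at 0.953, 1.38 and 2.87 CPM after TAC, against 0.318, 2.496 and 0.649 CPM after sham. Among DE hearts it stood at 2.18, 2.01 and 1.89 CPM after TAC, against 0.511, 1.00 and 0.289 CPM after sham. The DE groups did not overlap, on 2 to 30 counts per library, and the DE change of 1.76 ± 0.79 had an adjusted p of 0.273. Over both exposures the change was 1.18 ± 0.55 (adjusted p = 0.209).

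Hspa1b stood in FA hearts at 9.65, 4.76 and 12.6 CPM after TAC, against 1.69, 6.90 and 4.54 CPM after sham. Among DE hearts it stood at 10.3, 11.2 and 5.07 CPM after TAC, against 2.68, 15.9 and 3.32 CPM after sham. DE sham replicate 2 was the highest of all 12 hearts. It also had the lowest share of mitochondrially encoded counts, at 18.3%, and the lowest total, at 5534685 counts. Of the immediate early genes listed, Jun (102 CPM), Junb and Ier3 were highest in that heart. Fos, Fosb, Egr1, Egr3, Ier2, Atf3 and Nr4a1 were highest in other hearts. The Hspa1b change was 0.68 ± 0.49 (adjusted p = 0.487), and without DE sham replicate 2 it was 1.31 with an adjusted p of 0.0302. The summed level of Hspa1a and Hspa1b was 6.14 to 15.4 CPM in FA TAC hearts and 2.01 to 9.40 CPM in FA sham hearts. In DE hearts the sum was 6.96 to 13.2 CPM after TAC and 3.19 to 16.9 CPM after sham.

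The rest of the cytosolic Hsp70 system did not pass the test. Bag3, a cochaperone that links Hsp70 to small heat shock proteins and to autophagy of damaged sarcomere proteins, stood in FA hearts at 184, 107 and 128 CPM after TAC, against 189.5, 151 and 124 CPM after sham. Among DE hearts it stood at 142, 144 and 140.3 CPM after TAC, against 153, 161 and 122 CPM after sham. Its groups overlapped in both exposures and its change was -0.09 ± 0.14 (adjusted p = 0.781). Hspa8, the constitutive Hsp70, was at 0.15 ± 0.13, its exchange factor Hsph1 at 0.19 ± 0.15, and the J-domain partners Dnajb1 and Dnaja1 at 0.18 ± 0.18 and 0.23 ± 0.16. In the mitochondrial chaperonin, Hspd1 (Hsp60) was at 124, 87.6 and 113 CPM in FA TAC hearts, against 148, 111 and 133 CPM in FA sham hearts. Its DE hearts were at 88.4, 92.8 and 75.4 CPM after TAC, against 111, 87.9 and 109 CPM after sham, with overlap in both exposures. Its change was -0.27 ± 0.12 (adjusted p = 0.217), and that of its lid Hspe1 was -0.07 ± 0.15.

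Of the 5 small heat shock protein genes, 4 were among the most abundant members. Per kilobase of exon, Cryab had the highest level of the 36 in FA sham hearts, at 866 ± 183 CPM per kb (SD, n = 3), followed by Hspb7 at 505 ± 31.9, Hsp90ab1 at 356 ± 85.0, Hspb6 at 293 ± 65.7 and Hspa8 at 174 ± 25.2 CPM per kb. Hspa5 led the ER genes at 135 ± 27.9 CPM per kb, close to Hspb8 at 133 ± 11.3 CPM per kb. Hspb1 came 13th, at 54.1 ± 6.41 CPM per kb, below Herpud1, Hsp90b1, Calr, Canx and Bag3, and Hspa1a was the lowest at 0.389 ± 0.396 CPM per kb. Hsp90ab1 and Hspb6, and likewise Hspa5 and Hspb8, did not differ beyond their spread.

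After TAC, 3 small heat shock protein genes stood higher in every FA TAC heart than in every FA sham heart, as 8.2% of all genes did, and none of the 3 passed the test. Hspb1 was at 79.2, 82.6 and 71.9 CPM in FA TAC hearts, against 59.0, 60.2 and 48.2 CPM in FA sham hearts, a log2 change of 0.48 ± 0.19 (adjusted p = 0.341). Hspb7 changed by 0.35 ± 0.20 (adjusted p = 0.560) and Hspb8, the partner of Bag3, by 0.36 ± 0.20 (adjusted p = 0.522). In DE hearts the groups of these 3 genes overlapped, and DE sham replicate 2 had the highest Hspb1 and Hspb8 levels of the 12 hearts, at 85.9 and 395 CPM.

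Hspb6 had the smallest p of the group over both exposures. It stood in FA hearts at 601, 444 and 398 CPM after TAC, against 503, 347 and 348 CPM after sham, with overlap. Among DE hearts it stood at 498, 585 and 438 CPM after TAC, against 423, 366 and 360.0 CPM after sham, without overlap. The change over both was 0.34 ± 0.14 (adjusted p = 0.149). Cryab was at -0.01 ± 0.14, with 1000 to 1429 CPM in TAC hearts and 954 to 1388 CPM in sham hearts.

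**Figure D3:**
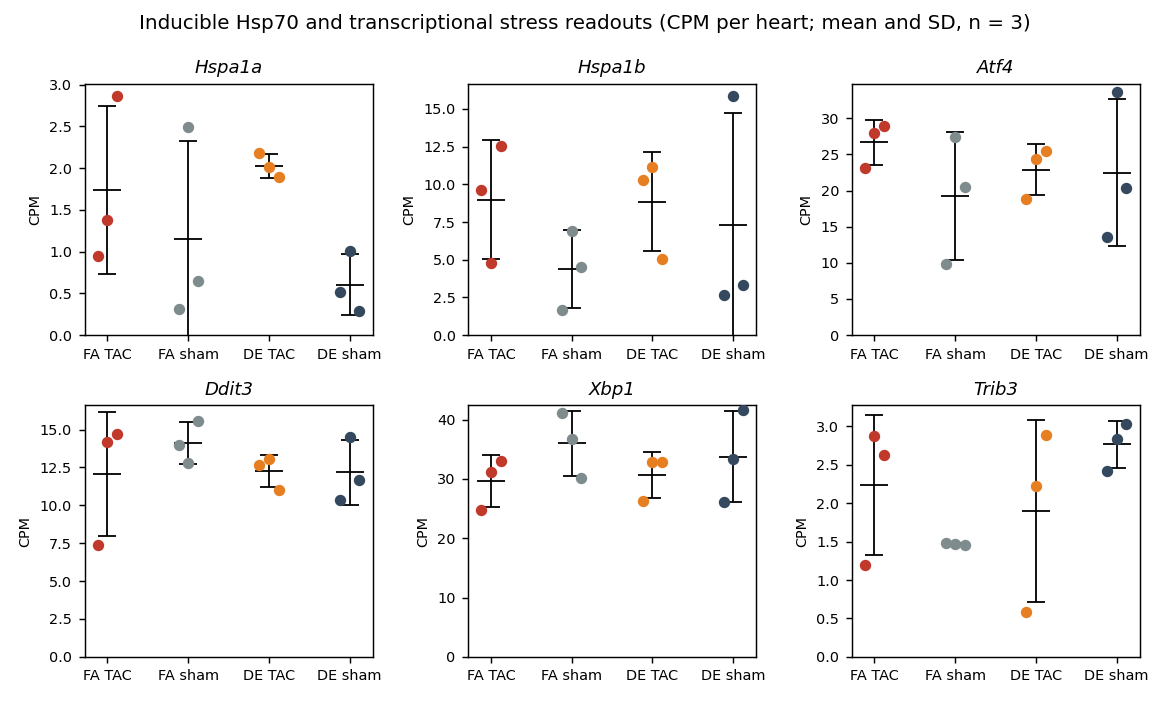
CPM (vertical axes, from 0) of the inducible Hsp70 genes and of 4 transcriptional readouts of ER stress, by group on the horizontal axis, with 1 point per heart and the mean and SD of 3 hearts. Over both exposures the TAC and sham hearts overlap for each gene, and DE sham replicate 2 has the highest Hspa1b and Atf4 levels.

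The counts within each exposure were smaller. In FA hearts 0 members passed edgeR's test after TAC, where 0.829% of all genes did (0.609% higher, 0.22% lower), with 6 members at an unadjusted p under 0.05 and 0 members called by limma voom. DESeq2 called 2 there, Hspa5 and Hsp90aa1. In DE hearts 1 member passed, where 3.24% of all genes did (1.75% higher, 1.49% lower), with 8 members at an unadjusted p under 0.05. DESeq2 called 3 there. By order alone, 5 members were higher and 2 lower without overlap in FA hearts, where 8.2% and 7.57% of all genes were. In DE hearts 3 members were higher and 6 lower without overlap, where 11.1% and 11.2% of all genes were. The 6 lower ones in DE hearts were all ER genes: Hspa5, Hsp90b1, Hyou1, Canx, Pdia6 and Herpud1.

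Whether prenatal diesel exhaust altered the response of these genes to TAC was asked with the interaction of the factors. The exposure by operation interaction called 0 members and 0% of all genes with edgeR, with 0 members at an unadjusted p under 0.05 and 0 called by DESeq2 or limma voom. For Hspa5 the difference between the TAC responses, DE minus FA, was -0.0019 ± 0.24 on the log2 scale, with a 95% interval from -0.51 to 0.51. For Pdia6 it was -0.05 ± 0.22, for Hyou1 -0.06 ± 0.27, for Canx -0.17 ± 0.25, for Herpud1 -0.33 ± 0.29 and for Hsp90aa1 -0.33 ± 0.38. The interval for Herpud1 ran from -0.93 to 0.26 and that for Hsp90aa1 from -1.13 to 0.47, so that differences of the size of the TAC changes themselves lay within them.

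Between exposures, 0 members and 0% of all genes passed edgeR's test in sham hearts, in TAC hearts or over both operations, and DESeq2 and limma voom called 0 members as well. In sham hearts, 2 members had an unadjusted p under 0.05, Creld2 (-0.67 ± 0.30) and Manf (-0.63 ± 0.30), both with an adjusted p of 0.996. Their highest level lay in FA sham replicate 1, without which Manf was at -0.12 and Creld2 at -0.35. Dnajb9 and Eif2ak3 were lower in all 3 DE sham hearts than in all 3 FA sham hearts and Trib3 was higher, where 3.6% and 4% of all genes were. Dnajb9 stood at 20.04, 21.2 and 24.2 CPM in DE sham hearts, against 32.0, 25.1 and 25.2 CPM in FA sham hearts (-0.33 ± 0.25). Trib3 stood at 2.43, 2.84 and 3.03 CPM in DE sham hearts, against 1.48, 1.47 and 1.46 CPM in FA sham hearts (0.90 ± 0.61), and Eif2ak3 was at -0.44 ± 0.26. In TAC hearts 0 members had an unadjusted p under 0.05. Pdia6 was lower and Pdia4 higher there without overlap, at -0.26 ± 0.16 and 0.22 ± 0.22, where 3.76% and 3.96% of all genes were. Over both operations Hspd1 was at -0.34 ± 0.12 and Pdia6 at -0.23 ± 0.11, with an adjusted p of 0.999 each.

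**Figure D4:**
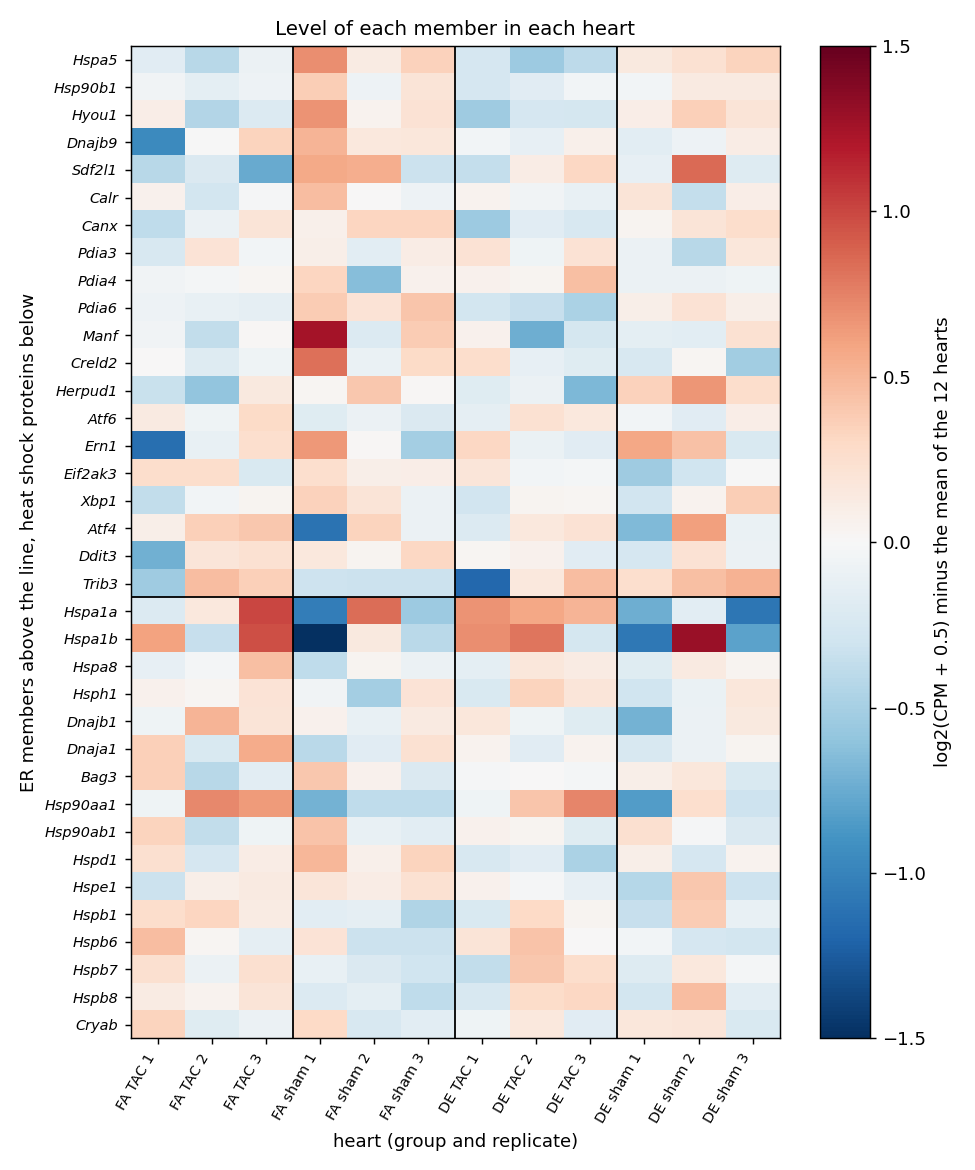
Level of each member (rows, ER genes above the line) in each of the 12 hearts (columns, by group), as log2(CPM + 0.5) minus the mean over the 12 hearts, with colours ending at 1.5 in each direction. The rows of Hspa5 and Pdia6 are blue in the TAC columns and red in the sham columns, and the column of FA sham replicate 1 is red for most ER chaperones.

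Other genes of the same compartments were counted on lists. Of 34 tested genes for ER folding enzymes and translocation that are no members, 4 rose after TAC over both exposures and 0 fell. They were Txndc5 (0.56 ± 0.13, adjusted p = 0.00707), a disulfide isomerase, Serpinh1 (0.44 ± 0.12, adjusted p = 0.0252), the collagen chaperone, Spcs3 (0.47 ± 0.13, adjusted p = 0.0238), a signal peptidase subunit, and Creb3l2 (0.47 ± 0.13, adjusted p = 0.0351), an ER-anchored transcription factor of secretory and matrix genes. Txndc5 kept its call in all 12 fits without a library, while Serpinh1 and Spcs3 kept it in 6 each and Creb3l2 in 4. In FA hearts Txndc5 stood at 44.1, 55.6 and 43.6 CPM after TAC, against 30.9, 40.1 and 30.5 CPM after sham. Among DE hearts it stood at 48.0, 52.6 and 57.7 CPM after TAC, against 32.4, 36.4 and 33.8 CPM after sham. The 6 TAC hearts were above all 6 sham hearts, the opposite order to Hspa5 and Pdia6. Of 14 tested genes of ER-associated degradation, 0 passed with edgeR, DESeq2 or limma voom over both exposures, and 2 had an unadjusted p under 0.05 with edgeR.

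Among 23 tested genes of the integrated stress response and ATF4 targets, 3 rose after TAC and 1 fell over both exposures. Nupr1, a stress-induced chromatin protein, rose by 2.07 ± 0.38 (adjusted p = 0.00117) and Mthfd2, a mitochondrial folate enzyme, by 1.56 ± 0.31 (adjusted p = 0.00291), and both kept the call in all 12 fits without a library. Gdf15, a secreted stress cytokine, rose by 1.998 ± 0.588 (adjusted p = 0.0405) and the folate enzyme Aldh1l2 fell by 1.12 on the log2 scale (SE 0.31, adjusted p = 0.0274), which were kept in 3 and 5 of the 12 fits. DE sham replicate 1 had 0 counts of Gdf15, and DE sham replicates 2 and 3 stood at 1.67 and 0.289 CPM, so the level after sham was low and uneven. With 1 library out the Gdf15 change ran from 1.66 to 3.02, the highest without DE sham replicate 2, and limma voom (adjusted p = 0.0583) and the fit without the robust option (0.0556) did not call it. Mthfd2 stood at 4.77 to 8.01 CPM in TAC hearts and 1.00 to 3.57 CPM in sham hearts. Nupr1 stood at 1.91 to 6.47 CPM in TAC hearts and 0.638 to 2.34 CPM in sham hearts. Within DE hearts both passed as well (Mthfd2 adjusted p = 0.0219, Nupr1 0.0421), where limma voom called 0 genes of the list. Within FA hearts 0 genes passed with edgeR or limma voom and 1 with DESeq2, with 2 at an unadjusted p under 0.05.

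Of 32 tested heat shock factors and cytosolic cochaperones, 0 rose and 3 fell over both exposures. These were the Hsp90 cochaperone Fkbp4 (-0.43 ± 0.12, adjusted p = 0.0301), the myosin chaperone Unc45b (-0.39 ± 0.12, adjusted p = 0.0426) and Hspa12a (-0.57 ± 0.17, adjusted p = 0.0371), kept in 6, 2 and 4 of the 12 fits without a library in that order. With limma voom 2 of the 3 were called, without Hspa12a (adjusted p = 0.0711). Of 11 tested mitochondrial chaperones and proteases, 0 rose and 3 fell, the protease subunits Clpx (-0.42 ± 0.11), Clpp (-0.54 ± 0.16) and Spg7 (-0.45 ± 0.14), kept in 7, 2 and 3 fits. With limma voom only Clpx of these 3 was called, with an adjusted p of 0.0603 for Clpp and 0.0543 for Spg7. These lists, like the members, were read against the 4.1% of all genes called higher and 3.91% called lower.

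Genes with an ERSE or ERSE-II match were also taken from all promoters. Of 20 such genes tested, 5 fell after TAC over both exposures and 0 rose, beside 3.91% and 4.1% of all genes. Of the 5, 4 were members, whose calls are those given above, so that 1 of the 13 other genes fell. The fifth was Acacb, the mitochondrial acetyl-CoA carboxylase (-0.52 ± 0.15, adjusted p = 0.0411), which kept its call in 3 of the 12 fits without a library. The 13 tested genes with a match that are no members had a median log2 change of -0.08, with 8 negative, and the 7 members a median of -0.40, with all 7 negative. The 52 tested genes with a heat shock element had a median of -0.07, with 0 higher and 2 lower, beside the same shares of all genes.

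Some of the cell markers moved with the operation. The summed level of 8 ventricular cardiomyocyte markers was 38090 to 62120 CPM in TAC hearts and 56640 to 76010 CPM in sham hearts, with 4 of the 8 lower by the test and the other 4 not past it. The summed level of 8 fibroblast markers was 1274 to 2374 CPM in TAC hearts and 750 to 959 CPM in sham hearts, with 5 of the 8 higher. For 8 macrophage markers the sums were 168 to 248 CPM in TAC hearts and 123 to 237 CPM in sham hearts, with 2 higher. For 6 endothelial markers the sums were 577 to 677 CPM in TAC hearts and 492 to 569 CPM in sham hearts. In this sum all 6 TAC hearts lay above all 6 sham hearts, by a narrow gap. By gene, Pecam1 alone separated them, and Cdh5, Kdr, Tie1, Tek and Emcn overlapped. Of the 6 genes, 0 passed edgeR's test (1 passed with DESeq2, 0 with limma voom, and 2 had an unadjusted p under 0.05). For 4 smooth muscle markers the sums overlapped, at 38.4 to 104 CPM in TAC hearts and 70.7 to 104 CPM in sham hearts. Of these genes only Acta2 passed the test, and it was lower (-0.75 ± 0.19, adjusted p = 0.0187). Tagln, Myh11 and Cnn1 overlapped. Tagln ran from 6.81 to 30.8 CPM in TAC hearts and 9.23 to 20.85 CPM in sham hearts. Myh11 ran from 6.45 to 31.7 CPM in TAC hearts and 12.55 to 23.2 CPM in sham hearts. The sums of T cell, atrial, adipocyte and erythrocyte markers overlapped as well. Those of 3 atrial markers were low, at 2.59 to 46.35 CPM in TAC hearts and 3.67 to 25.15 CPM in sham hearts. No gene of the first 5 lists was at 0 in all hearts. The labels say heart tissue and do not name the part of the heart. In such mixed tissue, fewer cells of a type and less RNA per cell cannot be told apart. The part of these shifts in the changes of the ER and Hsp90 genes was not tested. Plasma and B cell markers, from cells rich in ER chaperones, summed to 1.31 to 4.01 CPM in TAC hearts and 0.106 to 3.73 CPM in sham hearts. The part of these cells in the level of Hspa5 was not tested. The TAC labels were checked on 7 hallmark genes of pressure overload, of which 6 rose in FA hearts and 7 in DE hearts.

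Within groups, correlations between members were mostly weak. After the group means were taken out, the median Pearson r over the 12 hearts was 0.13 for 190 pairs of ER genes, 0.12 for 120 pairs of heat shock protein genes, 0.06 for 320 mixed pairs and 0.31 for the 10 pairs of small heat shock protein genes. The closest pair was Hspa5 with Manf at r = 0.97, both highest in FA sham replicate 1, followed by Canx with Hspa8 at 0.92 and Hsp90ab1 with Cryab at 0.91. The 12 hearts, 6 TAC and 6 sham, share the scaling, and the correlations are descriptions. A search for genes of like pattern left the group means in, so its r includes the differences between groups. Over the 12 hearts and 9847 genes with a mean of at least 5 CPM, the genes most like Hspa5 were Sord, Magi2, Lrrc15, a gene without a symbol and Dnajc28, with r of 0.93 to 0.94. Those most like Hspa1b were P2rx5, Arid5a, Ier5, Prelid1 and the immediate early gene Jun, with r of 0.88 to 0.91.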

How the data were processed

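The deposited table holds raw counts per Entrez gene number for 12 libraries, made by the authors with cutadapt 1.6, Subread 1.4.2 and featureCounts on mm10, per the submitters' processing notes. The strand setting, annotation version and treatment of multiply mapping reads are not stated in the sources used. Reads of near-identical copies (Hspa1a and Hspa1b) and of overlapping genes (Rabepk at Hspa5, at 3.26 to 9.53 CPM, Hspb2 at Cryab, Mars1 and Mbd6 at Ddit3) may therefore be shared. Symbols came from RefSeq GRCm38.p6 for 25275 genes and GENCODE for 18 more. Totals ran from 5534685 to 13265816 counts, of which mitochondrially encoded genes took 18.3% to 32.4% and the 36 members 0.586% to 0.824%. The floor per library, 3 counts, equalled 0.226 to 0.542 CPM on these totals, without TMM scaling, and covers counting error only.

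From these counts, TMM-scaled CPM were computed with edgeR 4.0.16 in R 4.3.3. A robust quasi-likelihood fit with 1 mean for each group took in all 12 libraries (8 residual degrees of freedom) for the 13626 genes that filterByExpr kept with a count minimum of 10. Each of 7 comparisons was adjusted by Benjamini and Hochberg over these genes, with a threshold of 0.05. A log2 change averaged over both exposures is called the change over both exposures. DESeq2 1.42.0 and limma 3.58.1 (voom) were alternatives, beside other settings and the leaving out of each library. The steps were tested on simulated data.

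Values per heart are given for each member past the threshold, for the sensors, for Hspa5, Xbp1, Ddit3, Atf4, Hspa1a, Hspa1b and Bag3, and for the member with the smallest p of each role, and other members by range, count or single value. On other lists up to 4 genes are named by smallest p. The members, lists and tests were chosen with earlier results of these data known. Promoters are those of RefSeq, without sequence after the gene's start.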

Additional observations from a re-analysis of the deposited data

How the results depend on the processing

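No paired analysis was possible because the labels give the groups no shared replicate numbers. The members called over both exposures after TAC numbered 6 (5 lower, 1 higher) and stayed at 6 with DESeq2, limma voom, RLE size factors, no filter or the mitochondrially encoded genes left out, were 5 without the robust option, and ran from 3 to 6 when 1 library was left out (3 without FA TAC replicate 2). All genes called there numbered 1091, and 631 to 1213 with 1 library out. In FA hearts the 0 members called became 2 with DESeq2 and 1 without the filter, and ran from 0 to 1 with 1 library out. All genes called in FA hearts, 113, became 258 with DESeq2, 74 with limma voom and 247 without the filter, and ran from 39 to 143. In DE hearts the 1 member called became 3 with DESeq2, 2 without the filter, and 0 with RLE size factors, the mitochondrially encoded genes left out or no robust option, and ran from 0 to 2. All genes called in DE hearts, 442, became 676 with DESeq2 and ran from 188 to 530. For exposure in TAC hearts and for the interaction, the 0 genes called became 1 with DESeq2 and 1 without the filter, and no member was called in any setting of the exposure or interaction tests.

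In the change over both exposures, directions turned only for 6 members that passed in no setting. With 1 library out these ran from -0.226 to 0.0243 for Creld2, -0.189 to 0.0207 for Ddit3, -0.165 to 0.0434 for Hsp90ab1, -0.155 to 0.0774 for Hspe1, -0.098 to 0.0813 for Cryab and -0.21 to 0.24 for Trib3, and Trib3 was at -0.25 with limma voom. The interaction, called for no member, crossed 0 as well and ran from -0.18 to 0.11 for Hspa5, -0.269 to 0.0895 for Hyou1 and -0.10 to 0.0072 for Pdia6, and for Hspa5 it was 0.0025 with DESeq2, 0.0021 with RLE size factors and 0.017 with the mitochondrially encoded genes left out. The cause of these shifts was not tested. With 3 hearts a group, the SE of a member's change within an exposure had a median of 0.20 on the log2 scale, which limits what these tests could call.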
